A study of Rattus norvegicus with 14 samples.

Results

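Rab GTPases, the largest branch of the Ras superfamily, were examined in the hippocampal subfield CA3 of rats after training in an unfamiliar water maze. The members were the probe sets for which the array's annotation gave 1 gene alone, with a symbol made of Rab, a number and at most 1 further letter, so that effectors and Rab-like genes stayed out. This gave 60 probe sets for 44 genes, of 15866 probe sets in all and of 10411 genes named alone by a probe set. Each gene was represented by its brightest probe set, the one with the highest mean over the 14 arrays, and 14 genes had further probe sets, which are described beside it. The 2 probe sets annotated to Rab1a and Rab1b together were left out.

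Both groups were young male Long-Evans rats of 3 to 4 months, and all of them, controls included, had first been trained in a standard water maze. After 2 to 3 weeks every animal swam a session of 8 trials in a new maze. In the learning activated group (n = 7) the room held spatial cues and the visible platform kept its place. In the control group (n = 7) the visible platform was moved from trial to trial and no informative cues were present. A probe trial of 90 s followed 1 h later, CA3 was dissected at once, and total RNA was hybridised to Affymetrix RAE230A arrays, which the labels number as biological replicates and which are taken here as 1 animal each. In such dissected tissue fewer cells of a type and less RNA per cell cannot be told apart.

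A Rab protein is a molecular switch. Bound to GTP it sits on a particular membrane through a lipid anchor at its C-terminus and recruits motors, tethers and other effectors, and after GTP hydrolysis it is taken off the membrane by GDP dissociation inhibitors. Each Rab marks its own stretch of the route between the endoplasmic reticulum, the Golgi apparatus, endosomes, lysosomes and the plasma membrane. In neurons these proteins govern the release of synaptic vesicles and the delivery and removal of receptors at synapses.

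Values are log2 levels after GCRMA, and differences are learning minus control. Of the 60 Rab probe sets 51 were tested, and the other 9 lay below the filter on dim probe sets, a mean log2 level of 3.88. The threshold for a call was a limma p below 0.05 after adjustment over all 9520 tested probe sets. At the brightest probe set 37 Rab genes were tested. Rab2a rose, Rab33b fell and 35 did not pass. That is 5.41% of the Rab genes, against 2.57% of all 6836 genes at their brightest probe sets. With all their probe sets 5 of 51 were called, or 9.80%, against 3.35% of all tested probe sets. Rab6a, Rab10 and Rab5a each rose at a dimmer probe set. The 4 increases stand beside 2.55% of all tested probe sets called higher, and the decrease beside 0.798% called lower. Unadjusted p-values lay under 0.05 for 12 of the 51 (23.5%), against 19.9% of all. The groups did not overlap at 5 Rab probe sets (9.80%), against 2.10% of all.

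The median difference over the 37 brightest probe sets was -0.0048 on the log2 scale, beside -0.03 over all genes at theirs. Of the 37, 17 lay above 0 (45.9%, against 36.1% of all genes at theirs) and 20 below. Their range was narrow, from -0.19 for Rab33b to 0.22 for Rab2a. Among the 35 that were not called the 95% intervals together reached from -0.47 for Rab14 to 0.43 for Rab8b. The standard deviation within a group ran from 0.014 to 0.29 in control and from 0.034 to 0.43 in learning animals, lowest for Rab3d and Rab12 and highest in both groups for Rab14.

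**Figure D1:**
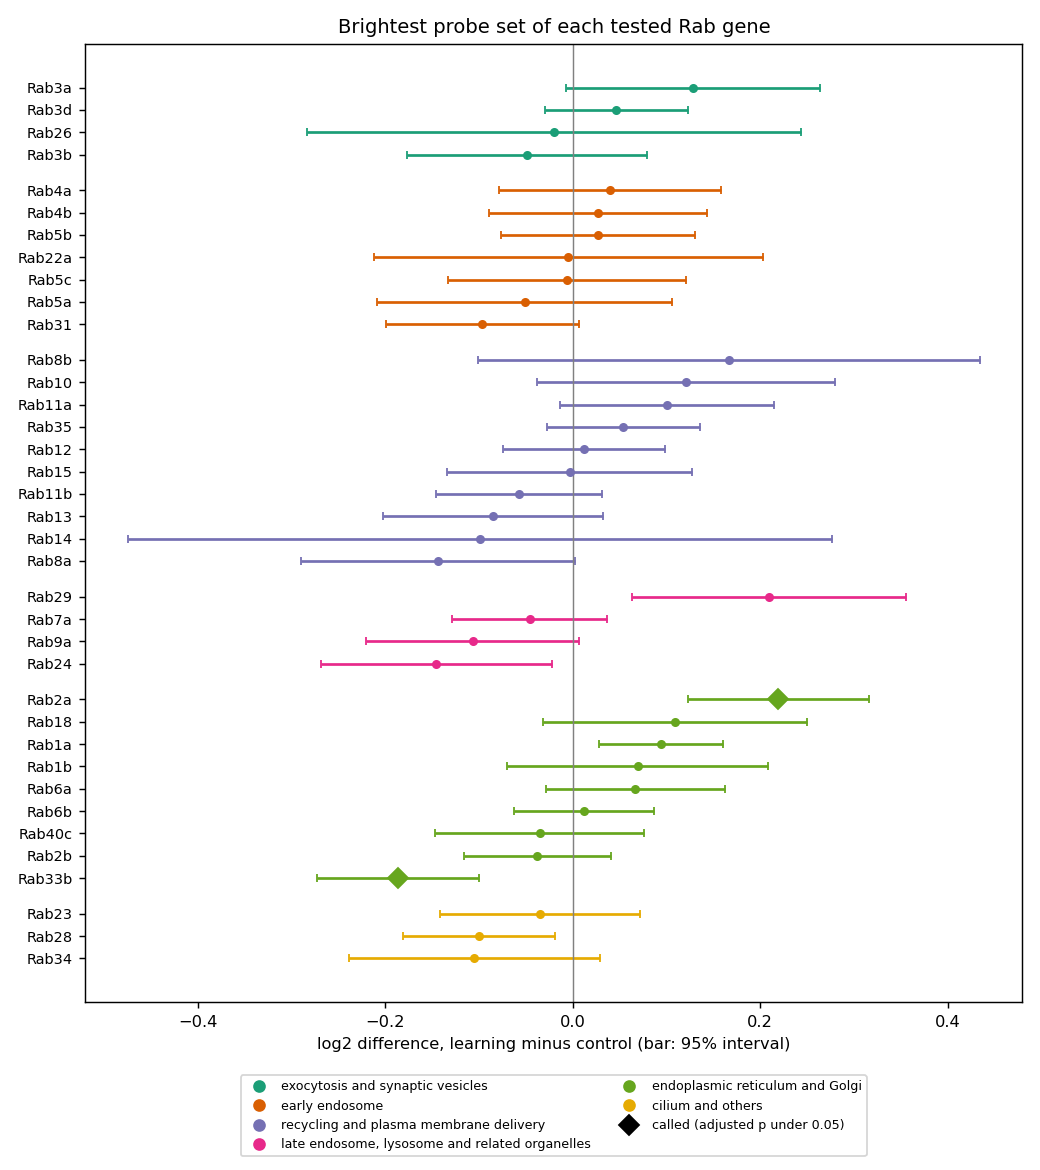
Log2 difference, learning minus control, of the brightest probe set of each of the 37 tested Rab genes, ordered by role. Points are differences of group means (n = 7 each), bars are 95% intervals from limma and diamonds mark called genes. Rab2a at 0.22 and Rab33b at -0.19 are the called genes and lie at the ends of the range.

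Some measures of the arrays differed between the groups. Fits with the Gapdh and hexokinase ratios, the spike-in level and the balance of probe sets as covariates are given further on, and the part of the marker levels that differed was not tested. Arrays correlated with each other at 0.983 to 0.995. The 3'/5' signal ratio of Gapdh, a measure of RNA integrity, was 0.45 ± 0.05 (log2, SD, n = 7) in learning and 0.51 ± 0.06 in control arrays (two-sided exact permutation p = 0.0443). The same ratio of hexokinase was 1.30 ± 0.05 and 1.53 ± 0.49 (exact permutation p = 0.281). That of actin was 1.31 ± 0.03 and 1.36 ± 0.15 (exact permutation p = 0.460). For each of Gapdh, actin and hexokinase this ratio was highest, among all 14 arrays, in control replicate 5. The mean gap between the dimmest and the brightest probe set of 345 genes outside the Rab family was -3.25 ± 0.03 in learning and -3.42 ± 0.11 in control arrays (exact permutation p = 5.83e-04). Spike-in controls averaged 9.19 ± 0.17 and 8.99 ± 0.12 (exact permutation p = 0.00524). Of 6 CA3 markers 4 were measured and above the filter, among them Grik4 (7.95 in control) and Bok (8.84). All 5 measured CA1 markers were above it as well, at a mean of 6.65 to 8.02 over control and 7.05 to 7.73 over learning arrays. Of 6 dentate markers measured, Dsp, Tdo2 and Pdzd2 lay below it, and the rest averaged 6.15 to 6.85 and 6.32 to 6.75. The mean of the 5 pan-neuronal markers measured was 11.01 to 11.17 in control and 11.20 to 11.29 in learning arrays (exact permutation p = 5.83e-04). Of these Nefl had a difference of 0.24 (limma adjusted p = 0.0333). Snap25, Rbfox3, Stmn2 and Tubb3 had 0.12, 0.20, 0.06 and -0.03 and were not called. The mean of the 4 CA3 markers was 6.98 to 7.26 and 7.18 to 7.30 (exact permutation p = 0.0431). Among them Spock1 had a difference of 0.28 (limma adjusted p = 0.0257). Grik4, Bok and Prkcd had -0.02, 0.01 and 0.07 and were not called. Choroid plexus markers above the filter, Ttr and Igfbp2 of 5 measured, averaged 6.50 to 8.71 and 5.33 to 6.55 (exact permutation p = 0.00175), with Kl, Folr1 and Kcnj13 below it. Ttr had a difference of -2.09 (limma adjusted p = 0.0124), and Igfbp2 had -0.70 and was not called. Endothelial markers above the filter, Cldn5 and Kdr of 4 measured, averaged 6.69 to 6.97 and 6.24 to 6.79 (exact permutation p = 0.0321), with Flt1 and Pecam1 below it. Cldn5 and Kdr had -0.05 and -0.40 and were not called. For the CA1, dentate, interneuron, astrocyte, oligodendrocyte and microglial means the exact permutation p-values ran from 0.107 to 0.915.

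The Rab genes of the endoplasmic reticulum and the Golgi apparatus had 11 tested probe sets and held 3 of the 5 called ones. Over all tested probe sets 3.35% were called. Rab2a and Rab33b were called at their brightest probe sets and Rab6a only at its dimmer one. Of the 9 tested genes of this route 6 had a difference above 0 and 3 below, with a median of 0.07. Of all genes at their brightest probe sets 36.1% lay above 0, with a median of -0.03. Rab2a, which acts in transport between the endoplasmic reticulum and the Golgi, had log2 levels of 10.16, 10.30 and 10.37 (lowest, median and highest) in control and 10.38, 10.51 and 10.68 in learning animals. All 7 learning animals lay above the highest control animal. The difference was 0.22 (SE 0.0455, 1.16-fold, adjusted p = 0.0186). Rab2b, its close paralog, had -0.04 at each of its 2 probe sets (adjusted p = 0.617 and 0.745).

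Rab33b, a Golgi Rab that also binds the autophagy protein Atg16l1, moved the other way. Its levels were 7.32, 7.38 and 7.52 in control and 7.09, 7.22 and 7.26 in learning animals, so that every learning animal lay below every control animal. It fell by 0.19 on the log2 scale (SE 0.0406, adjusted p = 0.0238). With the spike-in level of the array as covariate its difference was -0.19 and its adjusted p 0.0842.

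Rab6a, which directs vesicles from endosomes to the Golgi and from the Golgi outward, had the largest difference of all Rab probe sets at its dimmer one. Levels there were 8.08, 8.79 and 9.03 in control and 9.26, 9.41 and 9.77 in learning animals, without overlap. The difference was 0.73 (SE 0.122, 1.66-fold, adjusted p = 0.00573). At its brightest probe set the levels were 11.90, 12.06 and 12.09 against 11.99, 12.11 and 12.22. The groups overlapped there, and the difference was 0.07 (adjusted p = 0.430, 95% interval -0.03 to 0.16).

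The remaining genes of this route did not pass. Rab1a, the main Rab of early secretory transport, had 10.76, 10.83 and 10.88 in control and 10.86, 10.90 and 10.96 in learning animals, a difference of 0.09 with 6 of 7 learning animals above all controls (adjusted p = 0.109). Its paralog Rab1b had 0.07 (adjusted p = 0.602). Rab18, linked to the endoplasmic reticulum and lipid droplets, had 0.11 and the neuronal isoform Rab6b 0.01 (95% interval -0.06 to 0.09). Rab40c had -0.04. Rab39a was below the filter, with a mean of 2.53 in both groups.

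Of 8 early endosomal genes 7 were tested at their brightest probe sets, and limma called 0, with 0 at an unadjusted p under 0.05. Over all genes at theirs the shares were 2.57% and 18.6%, so 0 of 7 says little of this group. Rab5a, the Rab that drives fusion of early endosomes and the uptake of receptors, rose at its dimmer probe set. Levels there were 7.51, 7.98 and 8.13 in control and 8.07, 8.27 and 8.52 in learning animals, and 6 of 7 learning animals lay above all controls. The difference was 0.37 (SE 0.0911, 1.29-fold, adjusted p = 0.0397). At the brightest probe set the levels were 8.92, 9.07 and 9.21 against 8.64, 9.09 and 9.21, and the difference was -0.05 (adjusted p = 0.749). The call at the dimmer probe set was close to the threshold. It held without control replicate 5 or 7 or learning replicate 2 and was lost when any of the other 11 arrays was left out, with adjusted p-values of 0.0501 (without control replicate 6) to 0.0839 (without learning replicate 4) and differences of 0.33 to 0.39. It was also lost without a filter on dim probe sets (adjusted p = 0.0892) and with the hexokinase ratio (0.29, adjusted p = 0.0589) or the spike-in level (0.39, adjusted p = 0.111) as covariate.

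Its paralog Rab5b had a similar pair of values without a call. The dimmer probe set lay at 7.27, 8.07 and 8.13 in control and 8.16, 8.31 and 8.59 in learning animals, without overlap. The difference was 0.37, with an adjusted p of 0.0985, and the brightest probe set had 0.03 (adjusted p = 0.806). This dimmer probe set, like those of Rab14 and Rab12 below, was singled out after its values were seen. Rab5c had -0.0061 at its only probe set.

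The other early endosomal genes stayed between -0.10 and 0.05. Rab4a and Rab4b, which return receptors from early endosomes to the surface, had 0.04 and 0.03 (adjusted p = 0.738 and 0.829). Rab22a had -0.0048 and 0.05 at its 2 probe sets and Rab31 -0.10 at its brightest (adjusted p = 0.282). Rab20, with a mean of 2.98, was below the filter, as was the dimmer probe set of Rab31.

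Among 11 genes of recycling endosomes and delivery to the plasma membrane, 10 were tested, 5 above and 5 below 0, beside 36.1% of all genes above 0. At the brightest probe sets limma called 0, with 0 at an unadjusted p under 0.05. Over all genes at theirs the shares were 2.57% and 18.6%, so 0 of 10 says little of this group. Rab10, which carries secretory vesicles to the surface of axons and dendrites, rose at its dimmer probe set. Levels there were 6.81, 7.31 and 7.69 in control and 7.58, 7.76 and 8.10 in learning animals. The groups overlapped, with 4 of 7 learning animals above all controls and all 7 above the control mean. The difference was 0.57 (SE 0.131, 1.48-fold, adjusted p = 0.0316). At the brightest probe set the levels were 9.47, 9.84 and 9.98 against 9.74, 9.87 and 10.03, with a difference of 0.12 (adjusted p = 0.389). The call was lost without control replicate 1 (0.58, adjusted p = 0.0546) or 3 (0.52, adjusted p = 0.0609) and without learning replicate 4 (0.52, adjusted p = 0.0667), 6 (0.54, adjusted p = 0.0649) or 7 (0.53, adjusted p = 0.0588). It was also lost without a filter on dim probe sets (adjusted p = 0.0767) and with the hexokinase ratio (0.48, adjusted p = 0.0566) or the spike-in level (0.61, adjusted p = 0.0795) as covariate.

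Rab14, which works between the Golgi, early and recycling endosomes, was the gene with the most probe sets, 4 in all. At the second brightest the levels were 8.34, 8.55 and 8.91 in control and 8.92, 9.01 and 10.07 in learning animals, without overlap. The difference was 0.63 (SE 0.170, 1.55-fold), and its adjusted p of 0.0557 missed the threshold. The brightest probe set had -0.10 (adjusted p = 0.804), the third 0.31 (adjusted p = 0.329) and the dimmest 0.32 (adjusted p = 0.605).

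The 14 arrays fell apart into separate sets at 3 of these Rab14 probe sets, in both groups of animals. At the brightest one 7 arrays (control replicates 1, 2 and 7 and learning replicates 1, 3, 6 and 7) lay between 10.96 and 11.27, and the other 7 between 11.59 and 12.06. The first set was the higher one at the third probe set, with 8.31 to 8.64 against 7.57 to 8.03. It was also the higher one at the dimmest, with 6.79 to 7.32 against 5.52 to 6.14. At the second the same sets overlapped, 8.49 to 10.07 against 8.34 to 9.72. Each set held 3 or 4 animals of each group, and the cause of this pattern was not tested.

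**Figure D2:**
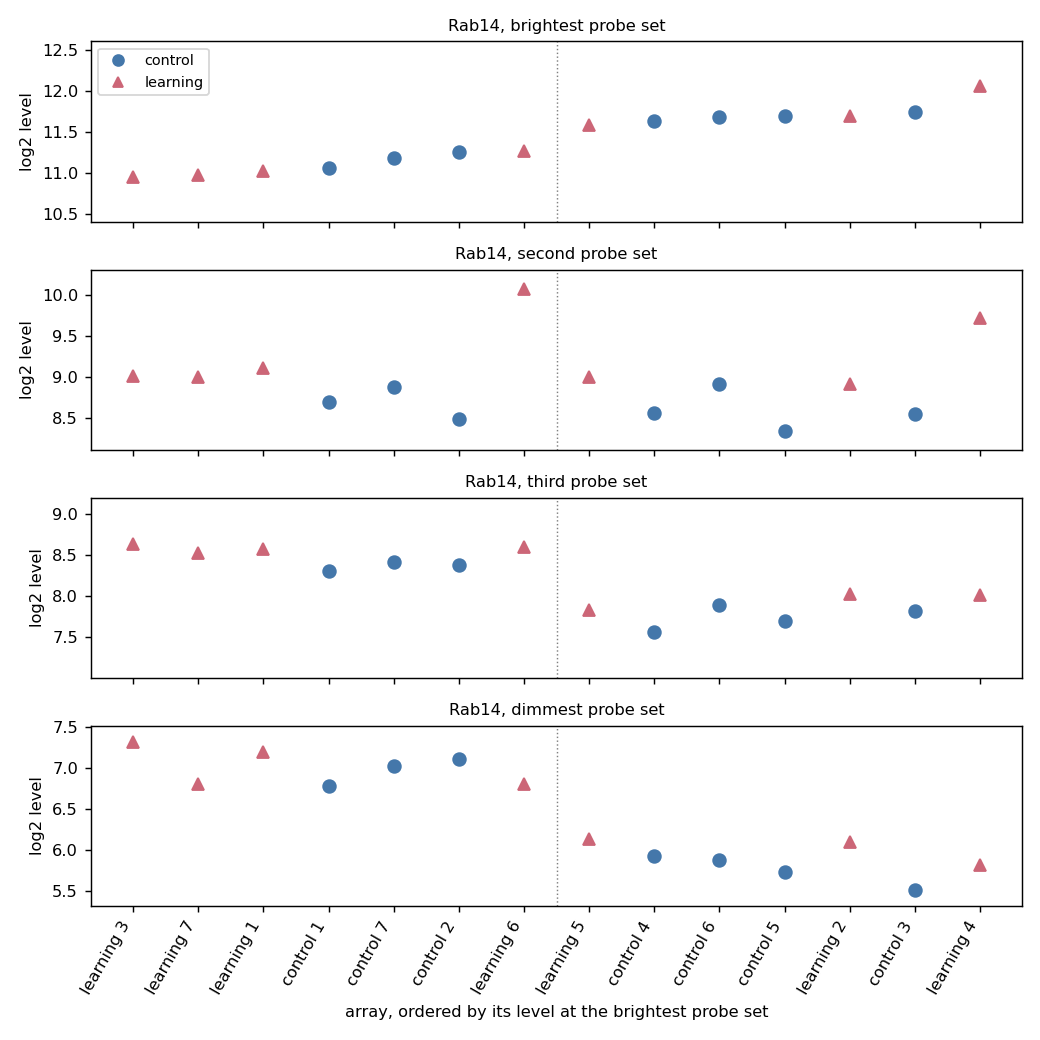
Log2 level of the 4 Rab14 probe sets in each of the 14 arrays, with arrays ordered by the brightest probe set, circles for control and triangles for learning animals. The dotted line marks the gap between 11.27 and 11.59 at the brightest probe set. Arrays to its left are higher at the third and the dimmest probe set, and at the second the learning arrays lie above the control arrays on both sides.

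The other recycling genes did not pass. Rab12, which takes part in degradation of the transferrin receptor, had 7.85, 8.11 and 8.25 in control and 8.22, 8.27 and 8.35 in learning animals at its dimmer probe set, a difference of 0.21 with an adjusted p of 0.0512, and 0.01 at its brightest. Rab11a and Rab11b, the defining Rabs of recycling endosomes, had 0.10 and -0.06 at their brightest probe sets and 0.01 and 0.05 at the others, with adjusted p-values from 0.318 to 0.915. Rab8a had -0.14 and Rab8b 0.17 (adjusted p = 0.261 and 0.493). Rab35 (0.05), Rab13 (-0.08) and Rab15 (-0.0033, with 0.14 at its dimmer probe set) did not pass either. Rab25, known from epithelia, was below the filter.

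Synaptic vesicle and exocytic Rab genes gave 0 limma calls among 4 tested, and 0 had an unadjusted p under 0.05. Array-wide, with each gene read at its brightest probe set, 2.57% were called and 18.6% had such a p. Counts of 0 among only 4 genes therefore say little of this group. Rab3a, the major Rab of synaptic vesicles, had 11.19, 11.45 and 11.53 in control and 11.40, 11.54 and 11.75 in learning animals. The groups overlapped, and the difference of 0.13 did not pass (adjusted p = 0.278, 95% interval -0.0069 to 0.26). Rab3b (-0.05), Rab3d (0.05) and Rab26 (-0.02), a Rab linked to the autophagy of synaptic vesicles, had adjusted p-values from 0.504 to 0.949. Rab3c, Rab27a and Rab27b were below the filter at means of 3.09, 2.82 and 3.62.

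In the late endosomal and lysosomal group limma called 0 of 4 tested genes, and 2 (Rab29 and Rab24) had an unadjusted p under 0.05. Among all genes at their brightest probe sets these shares were 2.57% and 18.6%, and 4 genes are too few to set against them. Rab29, a Rab that binds the kinase Lrrk2, had 7.18, 7.29 and 7.41 in control and 7.35, 7.41 and 7.78 in learning animals, a difference of 0.21 (SE 0.0685, adjusted p = 0.107). Rab24, tied to autophagy, had 8.05, 8.22 and 8.37 against 7.95, 8.07 and 8.18, a difference of -0.15 (adjusted p = 0.174). Both pairs of groups overlapped. Rab7a, the Rab of late endosomes, had -0.05 and 0.10 at its 2 probe sets, and Rab9a, which returns receptors from late endosomes to the Golgi, -0.11 (adjusted p = 0.283). Rab38 was below the filter.

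All 3 genes of the ciliary and remaining group lay below 0, and limma called 0, with 1 (Rab28) at an unadjusted p under 0.05. Of all genes at their brightest probe sets 36.1% lay above 0, 2.57% were called and 18.6% had such a p. The counts of 3 genes therefore say little of this group. Rab28 had 10.03, 10.11 and 10.18 in control and 9.91, 9.98 and 10.08 in learning animals, a difference of -0.10 (adjusted p = 0.157) with 4 of 7 learning animals below all controls. Rab34 had -0.10 and Rab23, a regulator of hedgehog signalling, -0.03.

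**Figure D3:**
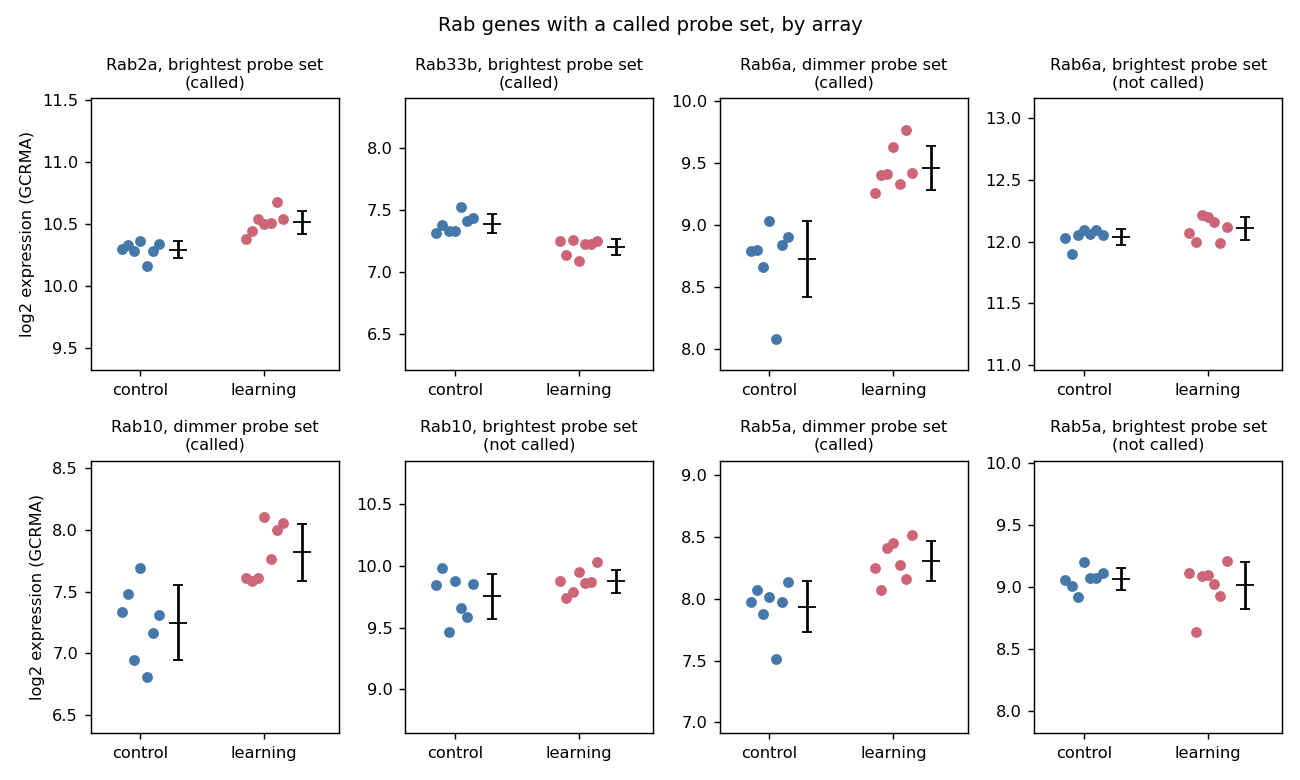
Log2 level in each array (points) with mean and SD (bars, n = 7 per group) for the 5 called Rab probe sets and the brightest probe set of Rab6a, Rab10 and Rab5a. Every panel spans the same range of log2 units. The learning animals lie above the controls at Rab2a and at the dimmer Rab6a probe set, below them at Rab33b, and among them at the brightest probe sets of Rab6a, Rab10 and Rab5a.

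The gap between probe sets of the same gene was then tested itself, a test chosen after the values were seen. Of the 12 Rab genes with several tested probe sets there were 14 dimmer ones, and 13 of the 14 had a larger difference than the brightest of their gene. Rab11a was the exception. The median difference was 0.26 at the dimmer probe sets and -0.0040 at the brightest of the same genes. Over 930 other genes with several tested probe sets these medians were 0.07 and -0.01, and 69.8% of 1116 dimmer probe sets exceeded the brightest. In a limma fit of dimmer minus brightest over all 1130 such pairs, 17.6% were called and 5 of the 14 Rab pairs (35.7%). In Rab6a the gap was -3.31 ± 0.31 in control and -2.64 ± 0.22 in learning animals, a shift of 0.67 (adjusted p = 0.00647). Rab10 shifted by 0.45 (adjusted p = 0.00647) and Rab5a by 0.42 (adjusted p = 0.00647). The second Rab14 probe set shifted by 0.73 (adjusted p = 0.0341) and Rab5b by 0.34 (adjusted p = 0.0418). In Rab12 the shift was 0.20 (adjusted p = 0.0823), in Rab7a 0.15 (adjusted p = 0.0991), and in Rab2b 0.0016 (adjusted p = 0.988).

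The annotation names the sequence behind most of these probe sets. For 10 of the 12 genes the brightest was tied to an expressed sequence tag and for 2 to an mRNA. The 14 dimmer ones were tied to an mRNA in 7 cases, with a median difference of 0.21, and to a tag in 5, with a median of 0.05. The dimmer probe sets of Rab10, Rab5a and the second of Rab14 were tied to a RefSeq mRNA. For 2, the called one of Rab6a and the dimmest of Rab14, the annotation gives no sequence.

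**Figure D4:**
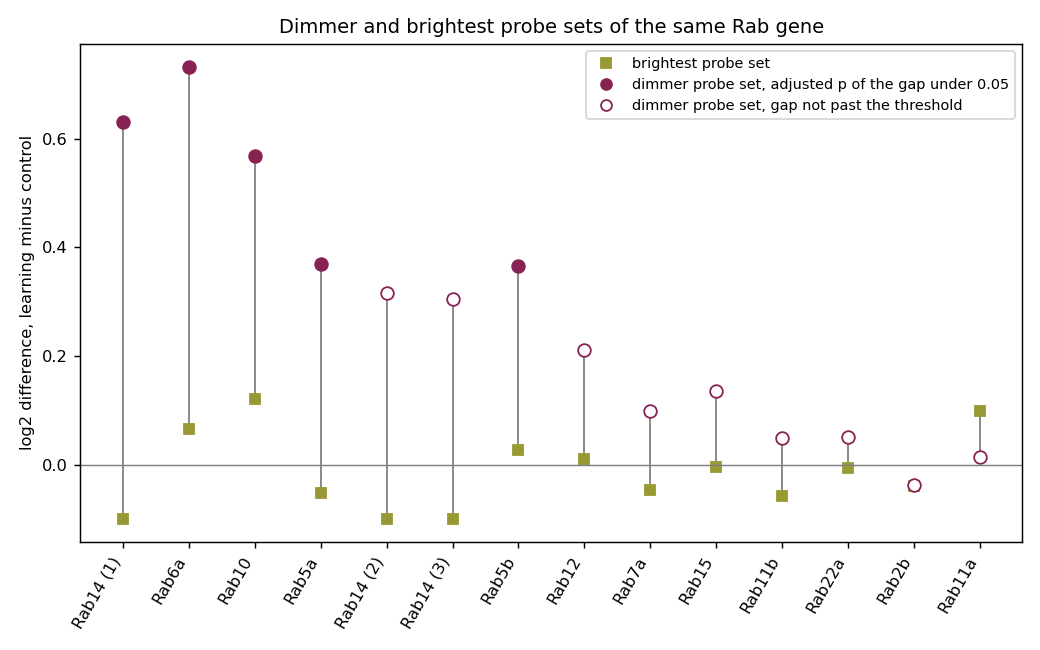
Log2 difference, learning minus control (n = 7 each), at the brightest (squares) and each dimmer (circles) probe set of 12 Rab genes. Filled circles mark the 5 pairs whose gap passed an adjusted p of 0.05, and Rab14 has 3 dimmer probe sets, numbered from the largest difference to the smallest. Circles lie above their square in 13 of 14 pairs.

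Calls changed with some measures of the arrays as covariate, over all probe sets as well as in the Rab genes. With the Gapdh ratio limma called 39 of all 9520 probe sets (0.410%), so that a count of 0 among the 51 Rab probe sets lies near the overall share. Unadjusted p-values lay under 0.05 for 10 of the 51 and for 14.04% of all. The differences in that fit were 0.59 for Rab6a (adjusted p = 0.0706), 0.52 for Rab10 (adjusted p = 0.157), 0.28 for Rab5a (adjusted p = 0.230), 0.20 for Rab2a (adjusted p = 0.128) and -0.13 for Rab33b (adjusted p = 0.170). The probe set balance, a covariate added after the data were seen, did not overlap between the groups (-3.65 to -3.35 in control and -3.31 to -3.21 in learning arrays), so that balance and group cannot be told apart. With it limma called 0 of all 9520 probe sets, with 8.75% at an unadjusted p under 0.05 (2 of the 51 Rab probe sets), and that fit says nothing particular of the Rab genes. Its differences were 0.24 for Rab6a (adjusted p = 0.449), 0.19 for Rab10 (adjusted p = 0.750), 0.08 for Rab5a (adjusted p = 0.861), 0.10 for Rab2a (adjusted p = 0.635) and -0.11 for Rab33b (adjusted p = 0.620). Without control replicate 5, the array with the highest 3'/5' ratios, 6 Rab probe sets were called among 249 of all 9520 (2.62%), with 0.62 for Rab6a (adjusted p = 0.00153), 0.20 for Rab2a (adjusted p = 0.0299) and -0.16 for Rab33b (adjusted p = 0.0352). All 5 called probe sets kept their direction in each alternative that was run.

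**Figure D5:**
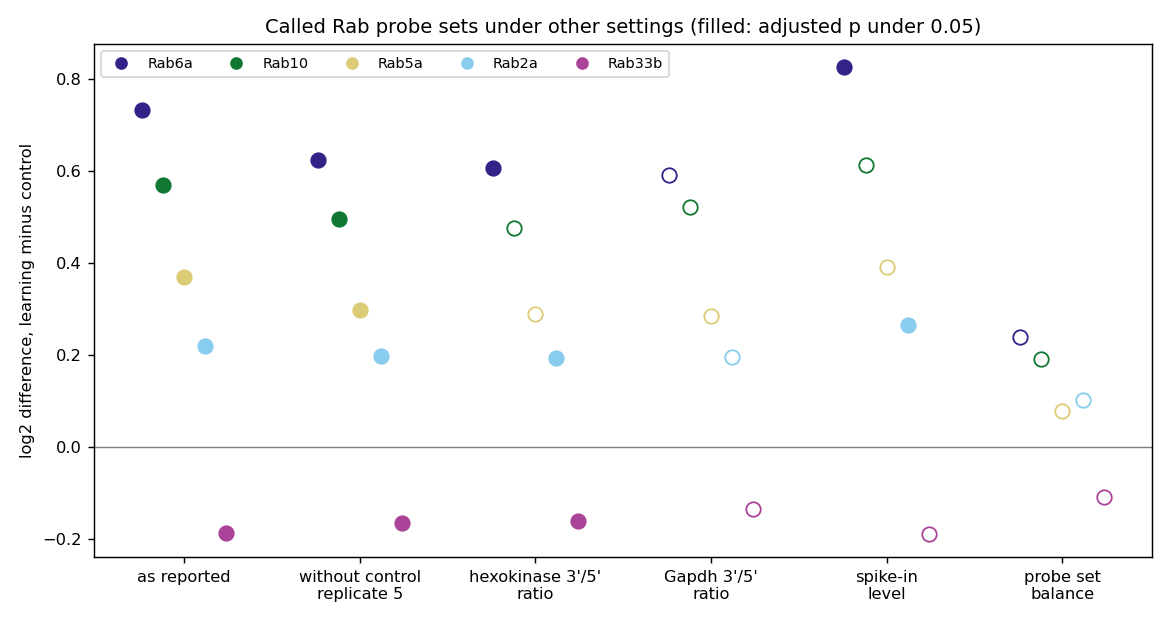
Log2 difference, learning minus control, of the 5 called Rab probe sets as reported, without control replicate 5, and with a measure of each array as covariate. Filled circles have an adjusted p under 0.05. All 5 are filled as reported and without control replicate 5. None is filled with the Gapdh ratio, where 39 of all 9520 probe sets were called, or with the probe set balance, which separates the groups and left 0 of 9520.

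The sequence upstream is shown for the 4 of the 5 called genes that had a promoter window. Rab6a, Rab10 and Rab5a were called higher at a dimmer probe set only, and Rab33b was called lower at its brightest. Rab2a, called higher at its brightest, had no window and is missing here. The windows are RefSeq's, build GRCr8, and run from 250 bases before to 50 after a gene start. Of the 44 Rab genes 36 had such a window. Capitals mark matches on either strand to 6 motifs. The cAMP response element was searched as TGACGTCA, and its core, which lies within it, as TGACG. The E-box was searched as CACGTG, and the GC box as GGGCGG. The remaining motifs were CCAAT and the TATA box, searched as TATAAA. Rab6a lies at chr1:164369783-164370082 (plus strand), Rab10 at chr6:32039505-32039804 (minus), Rab5a at chr9:6720877-6721176 (plus) and Rab33b at chr2:137678728-137679027 (plus).
Rab6a: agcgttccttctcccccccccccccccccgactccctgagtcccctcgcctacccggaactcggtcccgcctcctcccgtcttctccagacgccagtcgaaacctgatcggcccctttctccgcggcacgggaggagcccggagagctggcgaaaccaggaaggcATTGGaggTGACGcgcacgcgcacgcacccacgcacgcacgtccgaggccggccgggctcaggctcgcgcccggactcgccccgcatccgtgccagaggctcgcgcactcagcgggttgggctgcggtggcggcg
Rab10: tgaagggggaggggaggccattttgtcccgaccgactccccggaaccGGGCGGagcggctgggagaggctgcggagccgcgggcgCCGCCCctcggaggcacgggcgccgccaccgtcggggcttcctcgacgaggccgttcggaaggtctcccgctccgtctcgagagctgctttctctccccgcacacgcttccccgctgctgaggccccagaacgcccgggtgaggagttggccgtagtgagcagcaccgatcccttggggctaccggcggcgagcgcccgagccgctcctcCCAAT
Rab5a: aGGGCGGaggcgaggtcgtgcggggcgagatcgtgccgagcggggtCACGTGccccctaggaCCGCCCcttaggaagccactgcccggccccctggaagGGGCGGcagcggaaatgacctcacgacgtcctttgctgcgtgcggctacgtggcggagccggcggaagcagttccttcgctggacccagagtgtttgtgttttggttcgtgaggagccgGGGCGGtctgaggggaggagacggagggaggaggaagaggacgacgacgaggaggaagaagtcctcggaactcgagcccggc
Rab33b: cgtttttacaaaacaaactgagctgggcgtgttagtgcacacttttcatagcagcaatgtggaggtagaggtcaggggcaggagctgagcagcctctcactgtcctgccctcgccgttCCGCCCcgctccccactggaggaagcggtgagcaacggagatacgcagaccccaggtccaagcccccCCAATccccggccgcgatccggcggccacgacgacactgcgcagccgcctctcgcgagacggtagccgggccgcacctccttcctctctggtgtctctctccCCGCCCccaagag

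The GC box matched in 31 of the 36 Rab windows (86.1%), against 33.1% of all 33469 windows, and Rab6a was among those without it. Rab5a had 4 matches, Rab10 and Rab33b 2 each. Rab windows had a median GC content of 64.3%, beside 51.7% over all. The full cAMP response element was found in 1 of the 36 (2.78%, 1.83% of all) and TATAAA in 0 (14.2% of all). The core TGACG was found in 13 (36.1%, 21.2% of all), Rab6a among them, and CACGTG in 3 (8.33%, 6.42% of all), Rab5a among them. CCAAT matched in 14 (38.9%, 37.5% of all), among them Rab6a, Rab10 and Rab33b. These matches describe letters in the windows and were set against no level. The 33469 windows were not limited to genes on the array or above the filter. The shares therefore do not show a trait particular to Rab genes among those measured here.

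Genes that load, switch, prenylate or bind Rab proteins gave 0 calls at their brightest probe sets, where 2.57% of all genes were called. Of 108 listed, 72 were measured and 57 tested, 20 with a difference above 0 and 37 below, with a median of -0.02. This split lies near that of all genes at their brightest probe sets, 36.1% above 0 with a median of -0.03. Unadjusted p-values in limma lay under 0.05 for 13 of them (22.8%), against 18.6% of all genes at their brightest probe sets. The lowest p was that of Rims1, a Rab3 effector of the active zone, with 6.03, 6.79 and 6.97 in control and 6.98, 7.09 and 7.52 in learning animals. Its difference of 0.43 had an adjusted p of 0.0815. The brightest were Gdi2, a GDP dissociation inhibitor (0.000516, adjusted p = 0.995), and the exchange factor Dennd5a (-0.01, adjusted p = 0.915). Of 11 dimmer probe sets tested 1 was called (9.09%), a share near the 9.41% of dimmer probe sets called in genes outside the Rab family. It was that of Gdi2, with a difference of 0.25 (SE 0.0559, adjusted p = 0.0301).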

How the data were processed

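RNA of 14 CA3 samples was measured on Affymetrix RAE230A arrays, 1 per animal. The deposited values are log2 levels of 15923 probe sets, made by the authors with GCRMA per the submitters' processing notes. The GCRMA version is not given in the sources used here. That the scale is log2 was read from the range of the values. GCRMA compresses differences near background. Arrays have no read depth, and their number limits the precision.

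Groups and replicate numbers came from the sample titles. Genes came from the platform annotation, with 12754 of 12789 single-gene probe sets matched to RefSeq (GRCr8) by Entrez ID. The 57 control probe sets and 6346 with a mean below the 40th percentile were left out. The remaining 9520 were fitted with limma 3.58.1 (lmFit, eBayes, R 4.3.3) without covariates, with Benjamini-Hochberg adjustment over all of them, and the procedure was tested on simulated data. Single values per array were compared by an exact permutation test over 3432 assignments. Errors after ± are SDs.

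Every Rab gene is given by its brightest probe set. Called probe sets, the brightest of their genes, the 4 other genes with the lowest p and Rab3a are given with their values. The members and lists were chosen with earlier results of these data known. The labels call samples biological replicates. Replicate numbers were not treated as pairs. The alternatives are in the closing section.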

Additional observations from a re-analysis of the deposited data

Results flagged for a closer look

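Each of the 51 tested Rab probe sets was examined in both groups for an animal set apart from the other 6, by Dixon's test at the 95% level. Of 102 groups 13 were set apart in this way. The test would do so in about 1 of 20 normal and independent groups, but these probe sets share the same arrays. No share over all tested probe sets stands beside this count, so it says nothing particular of the Rab genes. In 6 of the 13 the animal was control replicate 5, whose 3'/5' ratios were the highest of all arrays, and in each it was the lowest of its group. These were Rab6a at its dimmer probe set (8.08, next lowest 8.66), Rab5a at its dimmer probe set (7.51, next 7.87), Rab5b at its dimmer probe set (7.27, next 7.94), Rab2a (10.16, next 10.28), Rab11b at its dimmer probe set (8.61) and Rab15 at its dimmer probe set (5.64, next 6.29). Of these, Rab6a, Rab5a and Rab2a were called, and they were also called without that array.

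The other 7 were spread over 5 animals. Control replicate 2 was lowest for Rab6a at its brightest probe set (11.90). Learning replicate 4 was highest for Rab5b at its dimmer probe set (8.59) and lowest for Rab15 at its dimmer one (6.10). Learning replicate 5 was highest for Rab3d (4.20) and learning replicate 7 for Rab40c (6.55). Learning replicate 6 was lowest for Rab15 at its brightest probe set (9.02) and for Rab7a at its brightest (10.003).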

How the results depend on the processing

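The count of 2 Rab genes called at their brightest probe sets became 0 with the Gapdh ratio or, chosen after the data were seen, the probe set balance as covariate (5 and 1 at an unadjusted p under 0.05), 1 with the spike-in level, also chosen afterwards, and 5 with any probe set of a gene. It was 2 in all other alternatives and without each array. The count of 5 Rab probe sets became 3 without a filter on dim probe sets or with the hexokinase ratio as covariate, 2 with the spike-in level, and 0 with the Gapdh ratio or the balance. It ran from 3 to 6 without each array, with 3 reached on leaving out control animals 1 or 3, or learning animals 4, 6 or 7. Over all 9520 probe sets 39 were called with the Gapdh ratio, 0 with the balance, which does not overlap between the groups and cannot be told apart from them, 143 with the spike-in level, 177 with hexokinase and 163 to 352 without each array. Without a filter on dim probe sets 158 of all 15866 were called (0.996%). The cause of these changes was not tested. The count of called Rab probe sets was 6, beside 313 of all 9520 (3.29%), with the replicate number as a block. The numbers were not taken to pair the arrays, since the deviations of same-numbered arrays correlated at -0.16 to 0.13, over 0.1 in 2 of 7 pairs, and 2 of 7 control arrays correlated best with their own number. A filter at the 60th percentile gave 7 called Rab probe sets, beside 350 of all 6347 (5.51%). Trended, robust moderation also gave 7, beside 388 of all 9520 (4.08%). The regulator count was 0 in all 27 alternatives. In some of them few of all 9520 probe sets were called, 0 with the balance and 39 with the Gapdh ratio, so that 0 says little there. Among the Rab probe sets named in full, sign changes occurred only in uncalled ones. The brightest of Rab5a had 0.00066 with the Gapdh ratio and, without each replicate in turn, -0.084 (without learning replicate 7) to 0.012 (without learning replicate 2), and Rab3a had -0.0042 with the balance. The median over Rab genes ran from -0.02 to 0.03.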

Other observations

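Appl1, an early endosomal effector of Rab5, had 3 tested probe sets. The brightest had a difference of -0.11 (adjusted p = 0.192) and the other two 0.51 (adjusted p = 0.0504) and 0.23 (adjusted p = 0.160), none of them called. Rabep1, another Rab5 effector, had 0.14 at a dimmer probe set (adjusted p = 0.161).

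Rab27b, which acts in exocytosis of secretory organelles, was dim and not tested. It lay between 3.49 and 3.57 in all 7 control animals and between 3.51 and 4.13 in learning animals, 4 of which were above all controls. Such values near background do not show that the gene was expressed.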
